A study of Mus musculus with 12 samples.

Results

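The genome-wide list of OCT4 peaks from female mouse embryonic stem cells (mESCs) was examined at the 4 Hox clusters, Hoxa, Hoxb, Hoxc and Hoxd. Of the 53675 peaks in the list, 49 lay within 20 kb of the body of at least 1 of 38 listed Hox genes, and all 38 genes were found in the RefSeq annotation. These 49 peaks divided into 8 at Hoxa, 19 at Hoxb, 12 at Hoxc and 10 at Hoxd. A further count took the span of each cluster from its first to its last listed gene. It held 42 peaks by midpoint over 485047 bp, of which 41 were among the 49 and 1 lay just outside the limit. This peak, between Hoxb9 and Hoxb13, was 20078 bp from the Hoxb9 body, and its neighbour just inside the limit was 19245 bp from it. Members were chosen by gene position and by no property of the peaks, though with earlier results of these data known.

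The cells were of the iXist-ChrX-Cast line, an interspecific female line (Dom/129S x Cast) in which doxycycline switches on Xist from the X chromosome of castaneus origin. Its 12 libraries form 6 groups of 2 replicates: OCT4 (antibody C3OA3C1), YY1 and input chromatin, each from untreated cells (day 0) and from cells given 1 µg/ml doxycycline for 6 days (day 6). All cells were kept in mESC conditions on feeder fibroblasts, removed by pre-plating before experiments, and carried the same inducible allele on both days, and 1 line stands for all groups. The peak list pools the 4 OCT4 libraries, both days together. It gives positions only, with no height, score or value per library, so that no difference between days or replicates could be tested at the Hox clusters and nothing below bears on the effect of doxycycline. Sequencing depth is not given in the files used here, and the tables of allelic values cover the X chromosome alone. No expression data were used here, so the identity of the cells was not checked against RNA markers.

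Hox genes encode homeodomain transcription factors that set position along the body axis, and their order along each cluster follows the order of their expression domains from anterior to posterior. The 4 mammalian clusters arose by duplication, so genes of the same number are paralogues. In undifferentiated mESCs the clusters are known as large domains of Polycomb repression rich in unmethylated CpG islands, and retinoic acid opens them from the anterior side. OCT4, encoded by Pou5f1, is a POU factor of pluripotent cells that binds the octamer ATGCAAAT and its variant ATGCTAAT, often beside a SOX2 element.

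Sequences of mm10, in 5′ to 3′ order on the strand of the octamer, are shown for the Hox peaks that held an octamer, with the octamer in capitals. Such peaks numbered 6 of 49 (12.2%, 95% exact binomial interval 4.63 to 24.8%), of which 4 lay inside the clusters.
Hoxb1 start (chr11:96365552-96365611, plus strand): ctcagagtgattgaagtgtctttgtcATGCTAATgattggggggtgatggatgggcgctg
Hoxb6 intron (chr11:96296069-96296128, minus strand): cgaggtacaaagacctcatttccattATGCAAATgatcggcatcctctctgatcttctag
Hoxc5 (chr15:103015929-103015958, minus strand): ccctctttcatATGCAAATaattaatgagc
Hoxd3 intron (chr2:74731171-74731230, plus strand): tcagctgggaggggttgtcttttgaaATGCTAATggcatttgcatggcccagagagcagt
3′ of Hoxd1 (chr2:74778059-74778118, plus strand): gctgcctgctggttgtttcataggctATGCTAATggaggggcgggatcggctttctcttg
3′ of Hoxa2 (chr6:52154128-52154187, plus strand): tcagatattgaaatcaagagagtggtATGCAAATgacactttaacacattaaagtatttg
The Hoxd3 intron peak held a second octamer, on the opposite strand, which reads atttgcat in the sequence shown and lies 3 bases beyond the first.

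The Hoxb1 site differed from the others in what surrounds it. Its octamer lay 165 bp upstream of the annotated Hoxb1 start, in a peak of 484 bp (chr11:96365421-96365904) that overlapped the start. The letters CTTTGT stand 1 base before the octamer, the arrangement of a SOX element joined to an octamer, and TGATGGAT follows a little downstream. The region upstream of Hoxb1, a gene of the hindbrain, is known for an autoregulatory element that binds HOX and PBX proteins beside a SOX and OCT site. On either strand, CATTGT or CTTTGT followed by any base and an octamer was present in 1 of 49 Hox peaks, the Hoxb1 peak, and in 58 of 51398 other autosomal peaks (0.113%). TGATGGAT was present in 2 of the 49, the Hoxb1 peak and the peak at the start of the noncoding RNA Hotairm1 beside Hoxa2, against 635 of the others (1.24%). These searches were added after the Hoxb1 sequence had been seen, and a match to letters is not evidence of binding by any factor. The exact composite with CATTGT and ATGCAAAT was in 0 of 49 Hox peaks and in 14 other autosomal peaks (0.0272%), and the upper limit for the 49 was 7.25%.

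Most Hox peaks held no octamer, as did most other peaks. The share was 9.52% (4 of 42, 2.66 to 22.6%) inside the clusters, 11.9% (7 of 59, 4.91 to 22.9%) in their flanks and 15.1% over other autosomal peaks, while 3.72% of consecutive genomic stretches of 300 bases held one. Within 300 bp centred on each peak the shares were 12.2% for the 49 Hox peaks and 11.8% for other autosomal peaks, and the interval of the former, 4.63 to 24.8%, contained the latter. The SOX element CATTGT alone was in 14.3% of peaks inside the clusters (5.43 to 28.5%) and in 27.5% of others. Octamers were absent from the 6 peaks inside Hoxa, which allowed a share of up to 45.9%, so a lack of octamers in Hoxa was not detectable at this number of peaks.

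The widest peaks of Hoxa, Hoxc and Hoxd are each shown by a 150-base stretch outside exons, with CG dinucleotides in capitals, because high CpG content was a common property of the Hox peaks.
Upstream of Hoxa5 (chr6:52204588-52204737, minus strand): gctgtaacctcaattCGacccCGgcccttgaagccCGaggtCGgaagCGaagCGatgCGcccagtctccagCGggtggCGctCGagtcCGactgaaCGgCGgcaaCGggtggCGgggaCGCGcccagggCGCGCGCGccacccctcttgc
Upstream of Hoxc13 (chr15:102920981-102921130, plus strand): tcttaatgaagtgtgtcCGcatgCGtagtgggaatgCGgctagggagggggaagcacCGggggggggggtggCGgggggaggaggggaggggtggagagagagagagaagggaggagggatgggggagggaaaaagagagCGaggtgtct
Hoxd11 (chr2:74681955-74682104, plus strand): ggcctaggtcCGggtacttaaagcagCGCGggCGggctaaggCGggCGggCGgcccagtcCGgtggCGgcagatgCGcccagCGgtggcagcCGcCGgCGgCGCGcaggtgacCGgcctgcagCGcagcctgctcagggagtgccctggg
These stretches contain 21, 6 and 18 CG dinucleotides, respectively. The widest peaks of the clusters were 1028 bp wide at the start of Hoxa5, 1107 bp at the starts of the noncoding genes Gm30134 and Gm11538 in Hoxb, 887 bp at the start of Hoxc13 and 1032 bp at Hoxd11.

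OCT4 peaks were denser in the 4 Hox clusters together than in other autosomal DNA and than in the DNA on either side of the clusters. The 42 peaks inside the clusters gave 86.6 peaks per Mb (95% exact Poisson interval 62.4 to 117), against 21.5 per Mb over chromosomes 1 to 19 without the clusters and their flanks, a ratio of 4.03 (2.91 to 5.45). Peaks covered 3.69% of the bases of the clusters and 1.14% of other autosomal bases. Intervals cover counting error only. They treat peaks as independent, which neighbouring peaks are not, and no p-value was computed.

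Hoxb, Hoxc and Hoxd had nearly equal densities and Hoxa the lowest. Hoxa (chr6:52162417-52260880) held 6 peaks, or 60.9 per Mb (22.4 to 133). Hoxb (chr11:96194316-96368254) held 16, or 92 per Mb (52.6 to 149). Hoxc (chr15:102921131-103036856) held 11, or 95.1 per Mb (47.4 to 170). Hoxd (chr2:74668225-74765142) held 9, or 92.9 per Mb (42.5 to 176). The 4 intervals overlapped widely, so no difference among the clusters was detectable at these counts. Each cluster exceeded the mean of its own chromosome, which was 19.9 per Mb for chromosome 6, 35.1 for chromosome 11, 19.9 for chromosome 15 and 21.7 for chromosome 2. The peaks inside the clusters were unevenly spaced, with a median distance of 8127 bp between neighbouring midpoints against 17268 bp on other autosomal DNA.

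**Figure D1:**
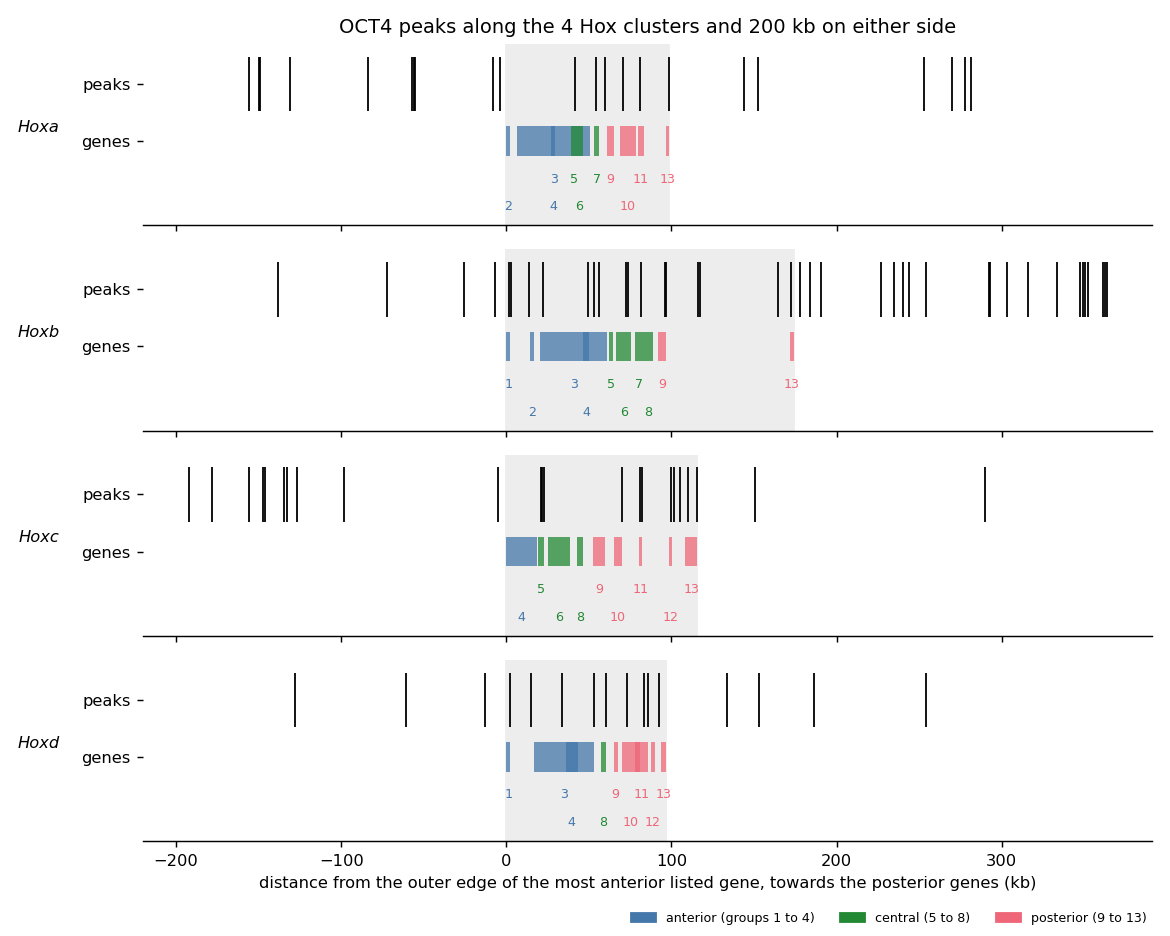
Positions of OCT4 peaks (black ticks, midpoints) along each Hox cluster and 200 kb on either side, in kb from the outer edge of the most anterior listed gene towards the posterior genes. Bars are gene bodies coloured by class and marked with their paralogue group, and the grey band is the cluster. Ticks are most crowded at the posterior end of Hoxc and in the posterior flank of Hoxb, and a stretch of 46928 bp over Hoxc6, Hoxc8 and Hoxc9 has none.

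The 200 kb on either side of the 4 clusters held 59 peaks, or 36.9 per Mb (28.1 to 47.6), which made the clusters 2.35 times as dense as their flanks (1.54 to 3.55). Hoxd was 5.31 times as dense as its flanks (1.76 to 16.8) and Hoxc 3.17 times (1.27 to 7.84). At Hoxa the ratio was 1.52 (0.488 to 4.1) and at Hoxb 1.53 (0.761 to 3.01), and both intervals include 1. The 4 intervals overlapped, and no difference among the clusters was tested. Among peaks at least as wide as the median, the intervals included 1 for Hoxc, at 2.59 (0.38 to 15.3), for Hoxd, at 5.5 (0.931 to 37.6), and for all clusters, at 1.93 (0.997 to 3.64). With peaks within 1 kb merged, that of Hoxc, at 2.77 (0.948 to 7.78), also included 1. For all clusters together the ratio was similar to the flank on the anterior side, 2.57 (1.55 to 4.33), and on the posterior side, 2.16 (1.33 to 3.54).

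The flanks differed in what they contain. The posterior flank of Hoxb held 20 peaks, or 100 per Mb, and the cluster was 0.92 times as dense (0.446 to 1.87), whereas it was 4.6 times as dense as its anterior flank (1.48 to 18.9). Peaks there lay at the starts of Igf2bp1, Snf8, Ube2z, Atp5g1, Calcoco2 and Ttll6, genes with no homeobox, and 3 peaks between Ttll6 and Hoxb13 lay 3812 to 16552 bp upstream of the Hoxb13 start. The anterior flank of Hoxb, towards Skap1, held 4 peaks, or 20 per Mb. In the anterior flank of Hoxa, 10 peaks included 3 in or beside the 5′ part of Skap2 and 3 in an intron of Halr1, a long noncoding RNA next to Hoxa, 55404 to 57097 bp from the cluster. The posterior flank of Hoxa held 6, including 1 at Evx1, an even-skipped homeobox gene at the end of the cluster. At Hoxc, 9 of the 10 anterior peaks lay 97995 bp or more from the cluster, near Smug1, a DNA repair gene, and Cbx5, which encodes a heterochromatin protein, and the posterior flank held 2 peaks. Hoxc was 1.9 times as dense as its anterior flank (0.733 to 4.99) and 9.51 times as dense as its posterior flank (2.07 to 88.3), so that only the latter interval excluded 1. Hoxd had the emptiest flanks, with 3 peaks on the anterior side, among them the start of Mtx2, and 4 on the posterior side, among them the start of Lnpk. No region called in the input libraries (843 in all, 741 of them autosomal) overlapped a cluster or a flank.

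**Figure D2:**
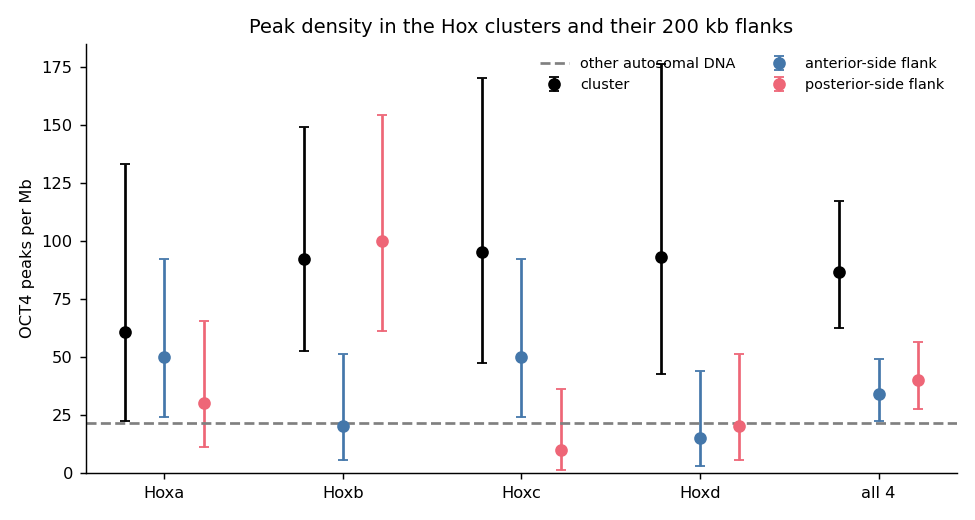
OCT4 peaks per Mb in each cluster (black) and in the 200 kb flank on its anterior (blue) and posterior (red) side, with 95% exact Poisson intervals. The dashed line is other autosomal DNA at 21.5 per Mb, and the posterior flank of Hoxb at 100 per Mb is the only flank above its cluster.

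The clusters are rich in genes and in GC, and DNA of like content elsewhere was also rich in OCT4 peaks. Over 23962 consecutive autosomal windows of 100 kb, the median was 1 peak and 32% had none. Of these windows, 92.8% were less dense than Hoxa and 97.6% were less dense than each of the other clusters. Peak density rose with the number of protein-coding starts in a window, from a mean of 12.1 per Mb with no start to 30.3 with 1 or 2, 42.4 with 3 or 4, 51.4 with 5 to 7 and 68.4 with 8 or more. The clusters contain 10, 10, 9 and 9 such starts for Hoxa, Hoxb, Hoxc and Hoxd, the Hoxb starts spread over 173939 bp. Among the 114 windows with 8 or more starts, 52.6% were less dense than Hoxa and 75.4% less dense than each of the others. Among the 603 windows with 5 to 7 starts, the range that fits Hoxb by length, 85.7% were less dense than Hoxb. The GC content of the clusters was 49.3% against 41.9% for other autosomal DNA, and among the 1564 windows with a GC content from 48 to 51%, 73% were less dense than Hoxa and 87.1% less dense than the others. Set against 100 kb windows around coding starts, the clusters were 2.52 times as dense (1.82 to 3.41), and Hoxa alone 1.78 times (0.651 to 3.86). Repeats made up 18.2% of the clusters and 33.5% of other autosomal DNA. Per Mb of sequence that is not repeat-masked, the ratio to other autosomal DNA was 3.28 (2.36 to 4.44) and the ratio to the flanks 2.05 (1.35 to 3.1). On this scale Hoxa was 2.18 times as dense as other autosomal DNA (0.8 to 4.74), an interval that includes 1.

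**Figure D3:**
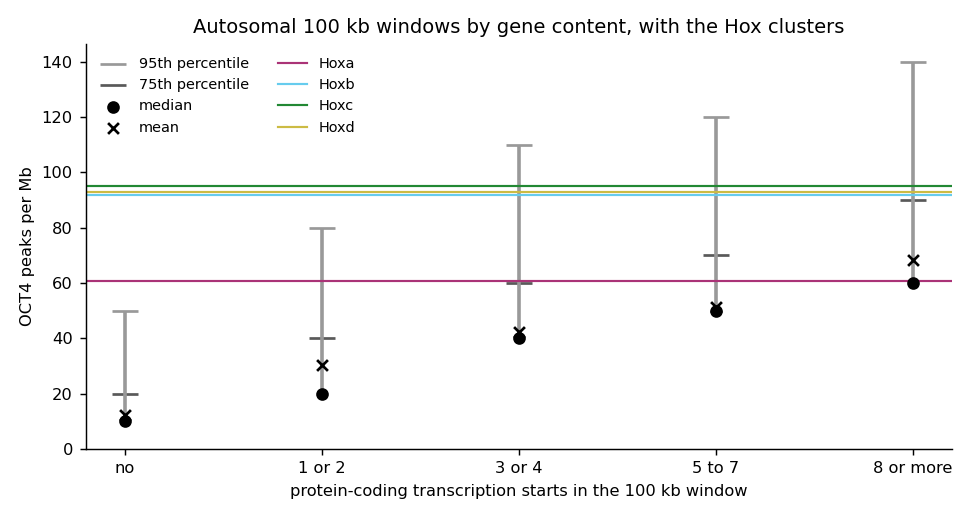
OCT4 peaks per Mb in autosomal 100 kb windows grouped by the number of protein-coding starts they contain, shown as mean, median, 75th and 95th percentile. Horizontal lines mark the densities of the 4 Hox clusters, with Hoxa at 60.9 per Mb close to the median of windows with 8 or more starts and the other 3 above the 75th percentile of that group.

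Every listed Hox gene had at least 1 OCT4 peak within 20 kb, 38 of 38, where 82.0% of 20558 autosomal protein-coding genes did. The median was 4 peaks per Hox gene and 2 per autosomal gene. Peaks near Hox genes were shared, since a peak had a median of 3 listed genes within 20 kb and up to 7, and counts for neighbouring genes are therefore not independent. A peak overlapped the 500 bp on either side of a RefSeq start in 15 of 38 Hox genes (39.5%, 24 to 56.6%), and in 52.4% of all autosomal protein-coding genes, a value inside that interval. The 23 other Hox genes had their nearest peak edge 587 to 23462 bp from a start, with a median of 3917 bp. Of the 38 genes, 15 had no peak in the gene body. Among peaks at least as wide as the median, the shares with a start peak were 21.1% of Hox genes and 39.8% of all autosomal protein-coding genes. The Hox share was below that of all genes in every setting tried, and no interval was computed for the alternative settings.

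A start peak was present at 5 of 9 genes in Hoxc and in Hoxd (55.6% each), 2 of 10 in Hoxa (20%) and 3 of 10 in Hoxb (30%). By position, 3 of 11 anterior genes (27.3%, paralogue groups 1 to 4) and 4 of 11 central genes (36.4%, groups 5 to 8) had one. Of posterior genes (groups 9 to 13), 8 of 16 (50%) did. The share over all autosomal protein-coding genes was 52.4%. Each of these Hox shares rests on 9 to 16 genes, and no difference among clusters or positions was tested. Both genes of group 1 in the list, Hoxb1 and Hoxd1, had a start peak. So did Hoxd3, a gene of the anterior axial skeleton, alone among anterior genes of higher number. None of the 2 genes of group 2, the 4 of group 4 and the 3 of group 6 had a start peak. The central genes with one were Hoxa5, which patterns the neck and lung, Hoxb7, Hoxc5 and Hoxd8. Among posterior genes, which pattern the lower trunk, limbs and urogenital tract, they were Hoxb9, Hoxa13, Hoxc10, Hoxc11, Hoxc12, Hoxc13, Hoxd10 and Hoxd11. The Hoxc genes 10 to 13 formed an unbroken run of 4 with a peak at each start, and Hoxc13, known for its role in hair and nails, had the widest of these. Hoxd11 had 2 start peaks, of 236 and 1032 bp, at its 2 annotated starts.

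**Figure D4:**
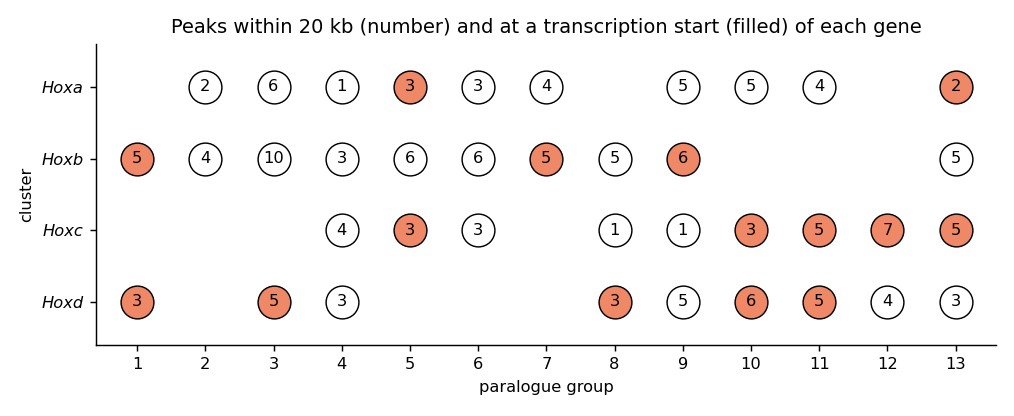
Each circle is a listed Hox gene, placed by paralogue group (horizontal) and cluster (vertical), with the number of OCT4 peaks within 20 kb of its body inside it and a filled circle where a peak overlaps 500 bp on either side of a RefSeq start. Filled circles form a run from Hoxc10 to Hoxc13, and Hoxb3 has the highest count, 10.

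The genes with the most peaks within 20 kb differed between clusters, and long genes had wider windows. In Hoxb, Hoxb3 had 10 peaks, 4 of them in its body of 40830 bp, but none at any of its 9 annotated starts. Hoxb5, Hoxb6 and Hoxb9 had 6 each. In Hoxa, Hoxa3, which is required for the thymus and parathyroid, had 6 over a body of 44009 bp, and Hoxa9 and Hoxa10 had 5 each. In Hoxc the order was Hoxc12 with 7, then Hoxc11 and Hoxc13 with 5 each. In Hoxd, Hoxd10 had 6, and Hoxd3, Hoxd9 and Hoxd11 had 5 each. Per length of the window, Hoxc12 was highest at 168 peaks per Mb, followed by Hoxb5 at 141 and Hoxb9 at 133, and Hoxc9 was lowest at 21.1. No listed gene was without a peak within 20 kb, and Hoxa4, Hoxc8 and Hoxc9 had 1 each.

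The genes with few peaks lay in long stretches without any. In Hoxc, 46928 bp between the peak at the Hoxc10 start and the peak at the Hoxc5 start held no peak and contained Hoxc9, Hoxc8 and Hoxc6 whole. In Hoxa, 44818 bp without a peak ran from the Hotairm1 peak to the Hoxa5 peak and contained Hoxa2 and Hoxa4. In Hoxb, the longest such stretch, 46727 bp, contained no listed gene and lay between Hoxb13 and Hoxb9. In Hoxd, a stretch of 40535 bp that contained Hoxd13, the gene of the digits, ended at a peak between Hoxd13 and Hoxd12. Within the Hoxd cluster the longest was 18628 bp and contained Hoxd4.

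Other peaks marked the interior of genes. Hoxb4, known in blood stem cells, had a peak over its coding exon 587 bp from its start, which narrowly missed the window for start peaks. Coding exons also held peaks of Hoxb1, Hoxb3 and Hoxb13. In all, 9.52% of peaks inside the clusters (4 of 42) were assigned to coding sequence, against 1.81% of other autosomal peaks. All 4 lay in Hoxb and none in the other clusters, and the share of cluster DNA that is coding was not measured. Introns held 10 of the 42 (23.8%, against 35.2%), and intergenic DNA 5 (11.9%, against 34.8%). Transcription starts of any gene, noncoding genes included, held 21 (50%, against 25.1%). Within 20 kb of Hox genes, the noncoding starts with a peak included those of Hotairm1, Mir615 inside Hoxc5, Gm53 between Hoxb9 and Hoxb13, and Haglr, whose start it shares with Hoxd1.

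The Hox peaks were richer in GC and CpG than other peaks, also away from starts. Their median GC content inside the clusters was 59.3%, against 49.3% for other autosomal peaks, and their median ratio of observed to expected CpG was 0.747, against 0.269. At transcription starts the values were close, with a ratio of 0.786 over 21 Hox peaks and 0.765 over 12922 other peaks. Away from starts the ratio was 0.591 over 21 Hox peaks and 0.21 over 38476 others, and the GC content was 57.4% against 47.2%. Octamers were in 1 of 21 Hox peaks at starts (4.76%, against 7.26%) and in 3 of 21 elsewhere (14.3%, against 17.8%). The 6 peaks with octamers had ratios from 0 in the Hoxd3 intron to 0.396 in the Hoxb6 intron, and some peaks without an octamer were as low, such as that in the Hoxc13 intron at 0.149. The Hox peaks were no wider than others, with a median of 380 bp against 422 bp. At starts the median was 403 bp over 21 Hox peaks and 579 bp over other peaks.

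Beside other lists of regulatory genes, the Hox genes had a density of peaks above that of all genes and below that of pluripotency regulators. Within 20 kb of the 38 genes there were 80.3 peaks per Mb (59.4 to 106), against 28.7 over all autosomal protein-coding genes. The 14 pluripotency regulators, among them Nanog, Sox2 and Pou5f1 itself, had 123 per Mb (102 to 147), and 13 of them (92.9%) had a start peak. The 14 Polycomb and Trithorax genes, whose products repress or activate Hox genes, had 88.7 per Mb (72.2 to 108), and all 14 had a start peak. Early lineage factors such as Eomes and Otx2 had 61.7 per Mb (46 to 80.8) and a start peak in 11 of 14. Hox cofactors of the Pbx, Meis and Pknox families had 40 per Mb (30.7 to 51.1) and a start peak in 6 of 9. Regulators such as Cdx1, Cdx2 and the retinoic acid receptors had 40.8 per Mb (31.3 to 52.3) and a start peak in 8 of 15. These are descriptions of lists that differ in gene length and spacing, and no difference between lists was tested. Among Hox genes, densities were 57.8 per Mb around Hoxa, 106 around Hoxb, 77.1 around Hoxc and 73 around Hoxd genes.

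**Figure D5:**
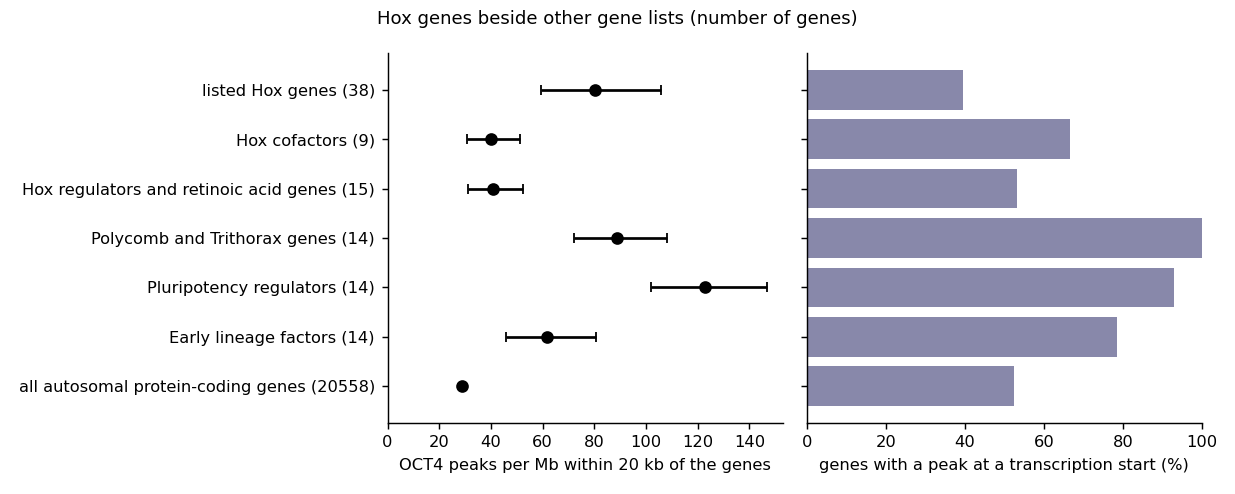
Left, OCT4 peaks per Mb of DNA within 20 kb of the genes of each list, with 95% exact Poisson intervals. Right, the share of genes with a peak at a transcription start. The Hox genes lie at 80.3 per Mb, below the pluripotency regulators at 123, and 39.5% of them have a start peak, beside 52.4% of all genes.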

How the data were processed

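OCT4, YY1 and input ChIP-seq was performed on chromatin crosslinked with DSG and formaldehyde. The study's methods give mm10 as the alignment genome. Peaks were called with MACS2 (q 0.01) in each library, regions found in at least 2 libraries were kept, and regions called in input were removed. Versions named in the submitters' notes are 2.3.5.1 for Bowtie2 and 3.5.0 for deepTools. The 2 deposited peak lists used here hold positions only. The authors' allelic ratios are fractions for X-linked peaks and served only to check coordinates: all 1006 of these peaks were found in the list after adding 1 to its start.

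Peaks were assigned to genes of the RefSeq annotation of GRCm38.p6, which has the mm10 sequence. A peak counted for a gene where it overlapped the body or 20 kb on either side, and for a span or window where its midpoint lay inside. A peak was assigned to a start within 500 bp first, otherwise to the exon, intron or intergenic DNA at its midpoint. Intervals (95%) are exact Poisson for densities, conditional exact binomial for ratios and Clopper-Pearson for shares, computed with scipy 1.17.1 in Python 3.11.15 and tested on simulated data. Octamers were searched on both strands. Genes named are all those with a start peak and, per cluster, those with the most peaks within 20 kb (3, with ties). Lone values of other members were chosen after they were seen. Members and lists were chosen with earlier results of these data known. A stretch of sequence and a list of genes are not reported here. Alternatives were peak width, distances, starts per gene, merged peaks, cluster edges, reference DNA and motif stringency.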

Additional observations from a re-analysis of the deposited data

How the results depend on the processing

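Over 117 alternatives, 103 values stayed within the interval of the reported value or within 1.5 times a reported count, and 14 moved. Intervals of single clusters were wide, such as 0.488 to 4.1 for Hoxa and 1.76 to 16.8 for Hoxd against their flanks. Staying within them is therefore a weak sign of stability. Of the 14, 9 were on the scale of the reported value, and the rest were percentages of bases covered. Removing peaks within 1 kb of an input region could change no value, since no Hox peak lay that near. Leaving out peaks narrower than the median width of 422 bp left 20 of the 49 peaks near Hox genes and lowered the density to 35 peaks per Mb over the 4 clusters, 20.3 in Hoxa, 46 in Hoxb, 25.9 in Hoxc and 41.3 in Hoxd. It left 8 genes with a peak at a start, 21.1% of the Hox genes against 39.8% of all autosomal protein-coding genes. The ratio of Hoxa to its flanks became 0.903, the other side of 1. With this width cut the intervals of the ratios to flanks included 1 for every cluster and for all 4 together. Those to other autosomal DNA included 1 for Hoxa, at 1.89 (0.229 to 6.83), and Hoxc, at 2.41 (0.497 to 7.05). Measured as bases covered, the clusters held peaks over 3.69% in all and over 2.76% of Hoxa, 4.03% of Hoxb, 3.28% of Hoxc and 4.51% of Hoxd, on another scale than counts. Against 100 kb windows around coding starts, the ratio to other autosomal DNA was 2.52. With 1 mismatch to ATGCAAAT allowed, 42.9% of Hox peaks held an octamer, beside 46.2% of other autosomal peaks. An alternative chosen after seeing the data took Hoxb from Hoxb1 to Hoxb9, without Hoxb13 and the stretch before it. Hoxb then had 124 peaks per Mb and 2.06 times the density of its flanks (0.94 to 4.29), an interval that includes 1.

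No paired analysis was possible because the peak list is pooled over the OCT4 libraries and carries no value per library, and for the same reason no replicate could be left out. Peak strength could not be weighed, since the list gives no height, and a peak called weakly counts as much as a strong one. With 6 to 16 peaks per cluster, differences between clusters below several fold could not be resolved. Sequencing depth, which sets how many weak peaks are called, is not in the files used here.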

Other observations

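Paralogous copies of a Hox gene were alike in the presence of a start peak in some groups and not in others. Of the 13 paralogue groups, group 1 was the only one in which every listed gene had a start peak, groups 2, 4 and 6 had none, and in the remaining 9 groups some copies had a peak and others had none. Group 13 illustrates this, with a start peak at Hoxa13 and Hoxc13 and none at Hoxb13 and Hoxd13. The last of these had its nearest peak edge 4307 bp from its start. Groups held only 2 to 4 listed genes each, and likeness among paralogues was not tested. Start peaks were at 39.5% of all listed Hox genes and at 52.4% of autosomal protein-coding genes.

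Some Hox peaks had close neighbours, and for 5 of the 49 the next peak began within 1 kb of their end. The closest lay 165 bp apart, at the start and in the intron of Hoxb9. Whether such neighbours are separate sites or parts of a single enriched region was not tested, since the list holds no profile of the signal.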
